A study of Mus musculus with 8 samples.

Results

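The genes described here encode RNA polymerase II, the Mediator complex and the factors that place the polymerase at a promoter. They were picked by a rule on symbols, with earlier results of these data known. The rule takes Mediator subunits (Med with a number), polymerase II subunits (Polr2a to Polr2m) and TBP-associated factors (Taf with a number). It also takes the general factors TFIIA, TFIIB, TFIIE, TFIIF and TFIIH (symbols starting Gtf2a, Gtf2b, Gtf2e, Gtf2f or Gtf2h). Of 79 mouse RefSeq symbols that matched, 75 had a probe on the array, 101 probes in all. Med6, Polr2a, Polr2d and Taf1 had no matched probe, so the largest subunits of polymerase II and of TFIID were not analysed here. Another 5 were too dim to test: Gtf2a1l and Med12l were well above background on none of the 8 arrays, Med13l on 1 of each group, and Taf1a and Taf4b on 1 PCKO array. The remaining 70 were tested, among 12737 named genes. RNA came from whole extensor digitorum longus, a muscle of the lower hindlimb built mainly of fast fibres. The donors were male mice of strain C57BL/6, 4 in each of 2 groups, with 1 single-colour array per mouse. The group called PCKO carried an inducible knockout of p300 (Ep300) and CBP (Crebbp), 2 related acetyltransferases, restricted to skeletal muscle. The recombinase and its driver are not named in the labels, and the genotype label reads CBP, not both genes. The other group was wild type (WT). The protocol gives tamoxifen by gavage for 5 days from 13 to 15 weeks of age, with muscles taken 1 day after the last dose and after a 4 h fast. It names the knockout mice as those dosed and does not say whether WT mice were.

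RNA polymerase II transcribes all protein-coding genes but cannot find a promoter alone. TFIID, built of the TATA-binding protein and its TAFs, recognises the core promoter, and TFIIA, TFIIB, TFIIF, TFIIE and TFIIH complete the preinitiation complex, with TFIIH opening the DNA and phosphorylating the polymerase tail. Mediator bridges this complex to activators bound at enhancers: its tail meets activators, its head and middle contact the polymerase, Med14 is the backbone, and a separable kinase module restrains it. p300 and CBP act beside Mediator as coactivators at the same enhancers.

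In PCKO muscle 49 of the 70 members tested had a difference above 0, beside 6701 of all 12737 genes tested. Most of these 49 differences were small. Of these 70 members tested, 31 rose and 8 fell at an adjusted p of 0.05 (limma, Benjamini-Hochberg over all genes tested), that is 44.3% and 11.4%. The same test called 38.3% of all genes higher and 32.7% lower. In either direction 55.7% of the members and 71.1% of all genes were called. The median log2 difference, PCKO minus WT, was 0.21 for the members and 0.06 for all genes. Between their quartiles the members spanned -0.02 to 0.45, where all genes spanned -0.57 to 0.57. The members ran from -0.80 (Med26) to 1.46 (Taf1d), and the genes at large from -8.98 to 6.66. Only 5 members rose by 2-fold or more (7.14%, against 11.7% of all genes) and none fell by as much (0.0%, against 13.9%). All PCKO values lay above all WT values in 28 members (40.0%, against 36.0% of all genes) and below them in 7 (against 29.6% of all genes). Every value below is log2 intensity relative to the 75th percentile of its array, where 0 is that percentile, and a difference carries the standard error of the fit (n = 4 mice per group). The members' counts and medians were not tested against those of other genes.

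**Figure D1:**
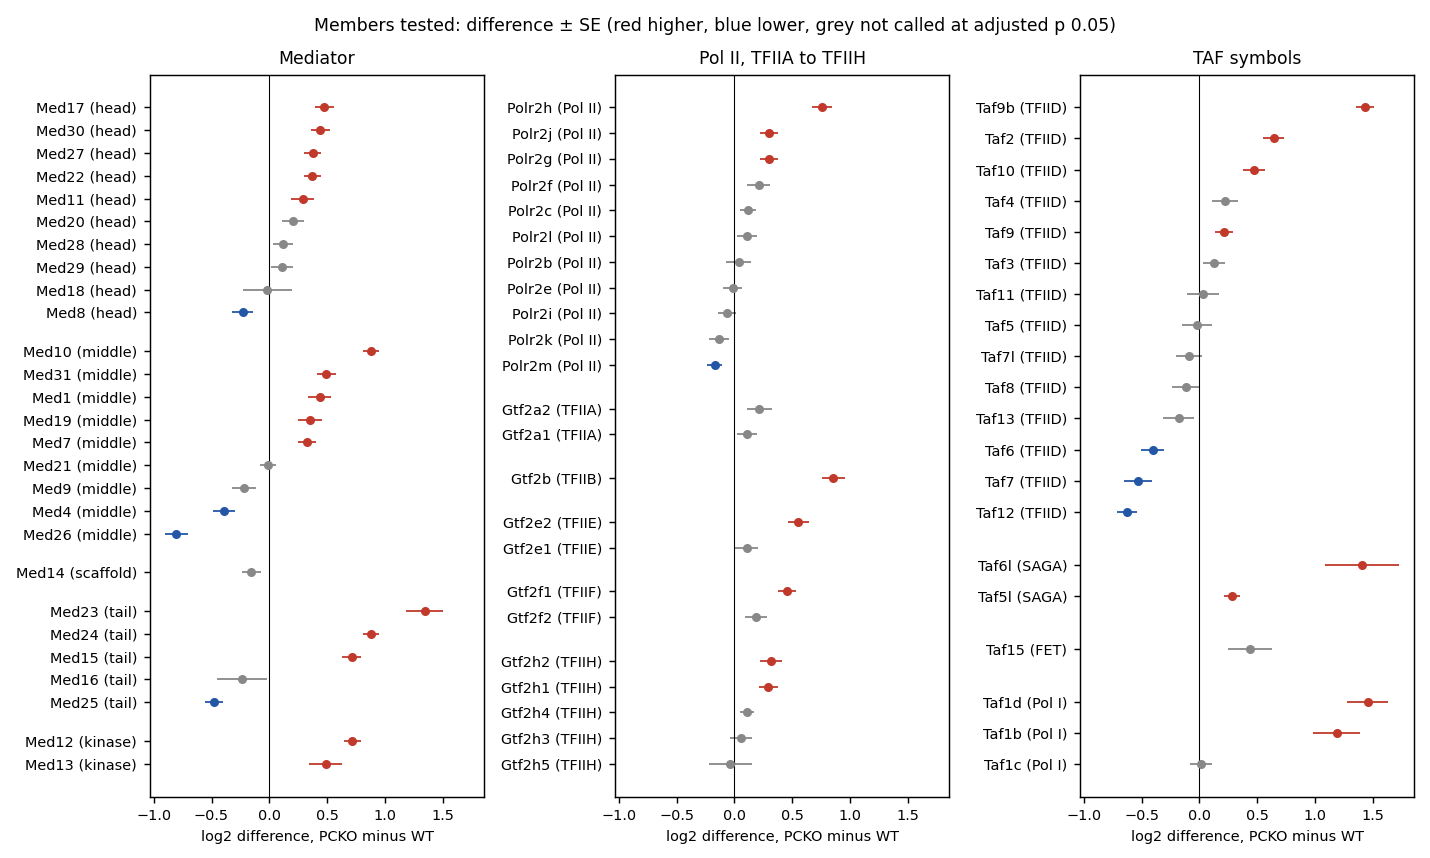
Log2 difference (PCKO minus WT, with its standard error) of each of the 70 members tested, in 3 panels for Mediator, for polymerase II with TFIIA to TFIIH, and for TAF symbols, each ordered within its subgroup. Red points were called higher, blue lower and grey not called at an adjusted p of 0.05; Taf1d, Taf9b, Taf6l, Med23 and Taf1b lie past 1 and no member lies below -1.

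The arrays were alike in detection and saturation, but not in intensity. Before scaling, the log2 75th percentile was 7.28 to 7.67 on PCKO arrays and 6.77 to 7.18 on WT arrays. Between 43.5% and 46.1% of probes lay well above background on each array, no spot was saturated, and arrays correlated over genes at r of 0.989 to 0.992 within a group and 0.911 to 0.925 between groups. All lay on 1 slide in 2 rows, each with 2 arrays of each group. In both rows PCKO arrays stood in columns 1 and 2 and WT arrays in columns 3 and 4. Group and slide column therefore cannot be told apart, and fits by row do not address the column. Within row 1 alone 16 members were called higher (22.9%, against 28.1% of all genes) and 4 lower (5.71%, against 24.4%), with a median difference of 0.19. Within row 2 alone 22 were higher (31.4%, against 27.3%) and 5 lower (7.14%, against 24.4%), with a median of 0.21. Ep300 differed by -1.44 ± 0.11 (limma adjusted p = 5.5e-06, and -0.96 with normexp) and Crebbp by -0.70 ± 0.11 (adjusted p = 3.8e-04, a call lost with spike-in centring and with normexp, below), but the position of either probe against the deleted exons was not known, so neither value checks the deletion. In whole muscle, fewer cells of a type and less RNA per cell cannot be told apart.

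Upstream sequence was examined for the members with the 2 highest and the 2 lowest differences, to show what kind of promoter they carry. The windows below are the 250 bases before an annotated start in RefSeq (GRCm38.p6), printed 5′ to 3′ in the direction of the gene. They are chrX:106221159-106221408 on the minus strand for Taf9b (1 of its 2 listed starts), chr9:15305964-15306213 on the plus strand for Taf1d, chr8:72548311-72548560 on the minus strand for Med26 and chr4:132274125-132274374 on the plus strand for Taf12. Capitals mark exact matches, on either strand, to any of 7 short motifs: the CRE core TGACG, the GC box GGGCGG, the ETS motif CCGGAAG, the CCAAT box, the TATA box TATAAA, the E-box CACGTG and the YY1 motif AAGATGG.
Taf9b: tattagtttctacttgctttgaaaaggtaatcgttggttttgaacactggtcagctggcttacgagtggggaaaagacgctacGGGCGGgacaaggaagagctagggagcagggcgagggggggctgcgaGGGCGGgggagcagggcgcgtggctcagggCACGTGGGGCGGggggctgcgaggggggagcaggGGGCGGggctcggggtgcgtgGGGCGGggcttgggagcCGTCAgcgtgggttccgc
Taf1d: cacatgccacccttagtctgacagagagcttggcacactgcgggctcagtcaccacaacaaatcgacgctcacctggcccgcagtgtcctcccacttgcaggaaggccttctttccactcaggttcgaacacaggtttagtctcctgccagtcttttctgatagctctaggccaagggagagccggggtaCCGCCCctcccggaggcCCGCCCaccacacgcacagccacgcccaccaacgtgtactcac
Med26: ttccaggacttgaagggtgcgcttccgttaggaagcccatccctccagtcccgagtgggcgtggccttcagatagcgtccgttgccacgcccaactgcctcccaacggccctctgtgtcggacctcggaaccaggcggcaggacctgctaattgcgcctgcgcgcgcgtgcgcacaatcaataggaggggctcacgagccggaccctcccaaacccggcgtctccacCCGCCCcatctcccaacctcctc
Taf12: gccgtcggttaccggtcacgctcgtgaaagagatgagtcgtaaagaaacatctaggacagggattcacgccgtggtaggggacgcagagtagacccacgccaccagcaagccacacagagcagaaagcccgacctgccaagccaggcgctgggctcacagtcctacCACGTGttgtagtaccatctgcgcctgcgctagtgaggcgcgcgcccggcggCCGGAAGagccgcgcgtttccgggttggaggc

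The Taf9b window held 5 GC boxes, an E-box that directly adjoins 1 of them, and a CRE core on the opposite strand. Taf1d held 2 GC boxes and Med26 held 1, all on the opposite strand, while Taf12 held an E-box and an ETS motif. None of the 4 held a TATA box, a CCAAT box or the YY1 motif. Over the 83 windows of 68 members that the RefSeq table lists, 59.0% held a GC box against 32.7% of all 32851 windows, 37.3% held a CRE core against 17.8%, and 22.9% an ETS motif against 6.91%. E-boxes stood in 13.3% against 6.02%, the YY1 motif in 6.02% against 4.49%, the TATA box in 14.5% against 12.4% and the CCAAT box in 33.7% against 33.8%. The CRE core is the motif read by CREB, the factor for which CBP is named. It stood in 36.4% of the 33 windows of members called higher, in 12.5% of the 8 windows of members called lower and in 47.1% of the 34 windows of members not called. These are shares of letters in a window and were not tested, and some genes have several windows, which can overlap. The 32851 windows belong to 27025 genes and were not limited to the 12737 genes tested on the arrays. Shares over the tested genes alone were not counted, so the motifs cannot be called particular to the members.

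Mediator is the largest group among the members. Of 27 subunits tested 15 rose and 4 fell, beside 38.3% and 32.7% of all genes, with a median difference of 0.33. Every module held a call except the backbone, which is 1 gene, where 71.1% of all genes were called. In the tail, which receives activators, 3 of 5 subunits rose and 1 fell. Med23, which links Mediator to Elk1 and other activators, was measured in PCKO mice 1 to 4 at -0.75, -0.70, -0.85 and -0.45, and in WT mice at -2.02, -2.22, -2.28 and -1.61. The groups were clearly separate, and the difference was 1.34 ± 0.16 (2.54-fold, limma adjusted p = 7.9e-05). This dim transcript differed by 0.48 when background was corrected by normexp and by 0.84 in the deposited table, still called in both. Med24, a partner of Med23 and of nuclear receptors, was at 4.33, 4.41, 4.44 and 4.47 in PCKO and 3.61, 3.53, 3.54 and 3.44 in WT. It was uniformly higher in PCKO, by 0.88 ± 0.07 (adjusted p = 8.0e-06), and its other probe gave the same 0.88. Med15, whose KIX domain resembles that of p300 and CBP, rose by 0.71 ± 0.08 (adjusted p = 5.9e-05), with all PCKO mice (3.87 to 4.06) above all WT mice (3.16 to 3.36).

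The tail subunit that fell was Med25, the contact of VP16 and of ETS factors. Its PCKO values were 2.52, 2.44, 2.52 and 2.30, and its WT values 2.99, 2.86, 2.97 and 2.87. Every PCKO mouse was lower, by -0.48 ± 0.08 (limma adjusted p = 6.0e-04), a call lost with normexp (-0.26, adjusted p = 0.10). So Med23, Med24 and Med15 moved one way and Med25 the other under the percentile scaling. With spike-in centring, described further on, Med25 stood at 0.20 and was not called.

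In the middle module 5 of 9 subunits rose and 2 fell, beside 38.3% and 32.7% of all genes. Med10 was measured at 2.22, 2.14, 2.20 and 2.11 in PCKO and at 1.24, 1.38, 1.27 and 1.25 in WT. Its 2 groups were narrow and far apart, with a difference of 0.88 ± 0.07 (limma adjusted p = 6.7e-06). Med1, the subunit that binds nuclear receptors through LXXLL motifs and that PPAR-gamma and thyroid hormone receptor use, rose by 0.43 ± 0.10 (adjusted p = 0.0041), PCKO lying between 4.03 and 4.29 and WT between 3.50 and 3.85. Neither slide row alone called Med1 (0.41 and 0.45). Med26 was the member that fell most. It is found in forms of Mediator without the kinase module, and brings in elongation factors. Its PCKO values were 2.06, 1.86, 2.01 and 1.99 against 2.68, 2.79, 2.66 and 3.02 in WT. No PCKO mouse reached the lowest WT value, and the difference was -0.80 ± 0.10 (1.75-fold, adjusted p = 1.0e-04). It was -0.12 with spike-in centring, the only member below 0 there, and not called (adjusted p = 0.74). Med4, at the hinge of the middle module, differed by -0.39 ± 0.09 (adjusted p = 0.0048) with non-overlapping groups, but this call was lost with normexp (-0.19), in slide row 1 alone (-0.26) and with spike-in centring (0.29).

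Head subunits, which touch the polymerase and TFIIH, moved less: 5 of 10 rose and 1 fell, beside 38.3% and 32.7% of all genes. The largest difference among them was that of Med17, the central head subunit, at 0.48 ± 0.08 (limma adjusted p = 9.5e-04). Med17 lay at -0.57 to -0.29 in PCKO and -0.97 to -0.78 in WT, and its call was lost with normexp (0.19, adjusted p = 0.18). Med8 had the lowest value, -0.23 ± 0.09 (adjusted p = 0.046), with overlapping groups, and it turned positive under quantile normalization (0.04), normexp (0.06) and spike-in centring (0.45). Its call was also lost without any 1 of 7 of the 8 mice, all but WT replicate 1. The backbone subunit Med14 was at 3.39, 3.55, 3.72 and 3.56 in PCKO and 3.72, 3.67, 3.74 and 3.71 in WT. The groups overlapped, and the difference of -0.16 ± 0.08 was not called (adjusted p = 0.12). Averaged over its 3 probes, Med14 was called higher instead (0.24, adjusted p = 0.048), while it was called lower without PCKO replicate 3 (-0.21) and with median centring (-0.24).

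Both subunits of the kinase module that could be tested rose, where 38.3% of all genes did. Med12, which activates the module's kinase, was at 3.77, 3.58, 3.78 and 3.69 in PCKO and 3.01, 3.04, 2.97 and 2.93 in WT. All PCKO mice were higher, by 0.72 ± 0.07 (limma adjusted p = 3.6e-05). Med13, which ties the module to Mediator, was dim. It lay at -2.59 to -2.14 in PCKO and -3.07 to -2.52 in WT, ranges that overlap, and differed by 0.49 ± 0.14 (adjusted p = 0.012). Neither slide row alone called it (0.36 and 0.61), and it turned to -0.13 with normexp. The enzymes of the module lie outside the symbols chosen, and their probes disagreed. At their brightest probes Cdk8 differed by -0.07 ± 0.09 (adjusted p = 0.48) and cyclin C (Ccnc) by -0.21 ± 0.13 (adjusted p = 0.18). Another probe of each was called higher, at 0.38 for Cdk8 (adjusted p = 0.0024) and 0.29 for Ccnc (adjusted p = 0.015). The brightest probes changed sign in other settings, and each was called in 1, Cdk8 higher in the deposited table (0.28) and Ccnc lower without PCKO replicate 3 (-0.33). The Cdk8 paralogue Cdk19 was 0.27, 0.56, 0.35 and 0.32 in PCKO and 1.84, 1.95, 1.63 and 1.33 in WT. It fell in every PCKO mouse, by -1.31 ± 0.14 (2.49-fold, adjusted p = 4.2e-05), and by -0.63 with spike-in centring (adjusted p = 0.058). Whether Cdk19 and Cdk8 differ from each other was not tested.

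**Figure D2:**
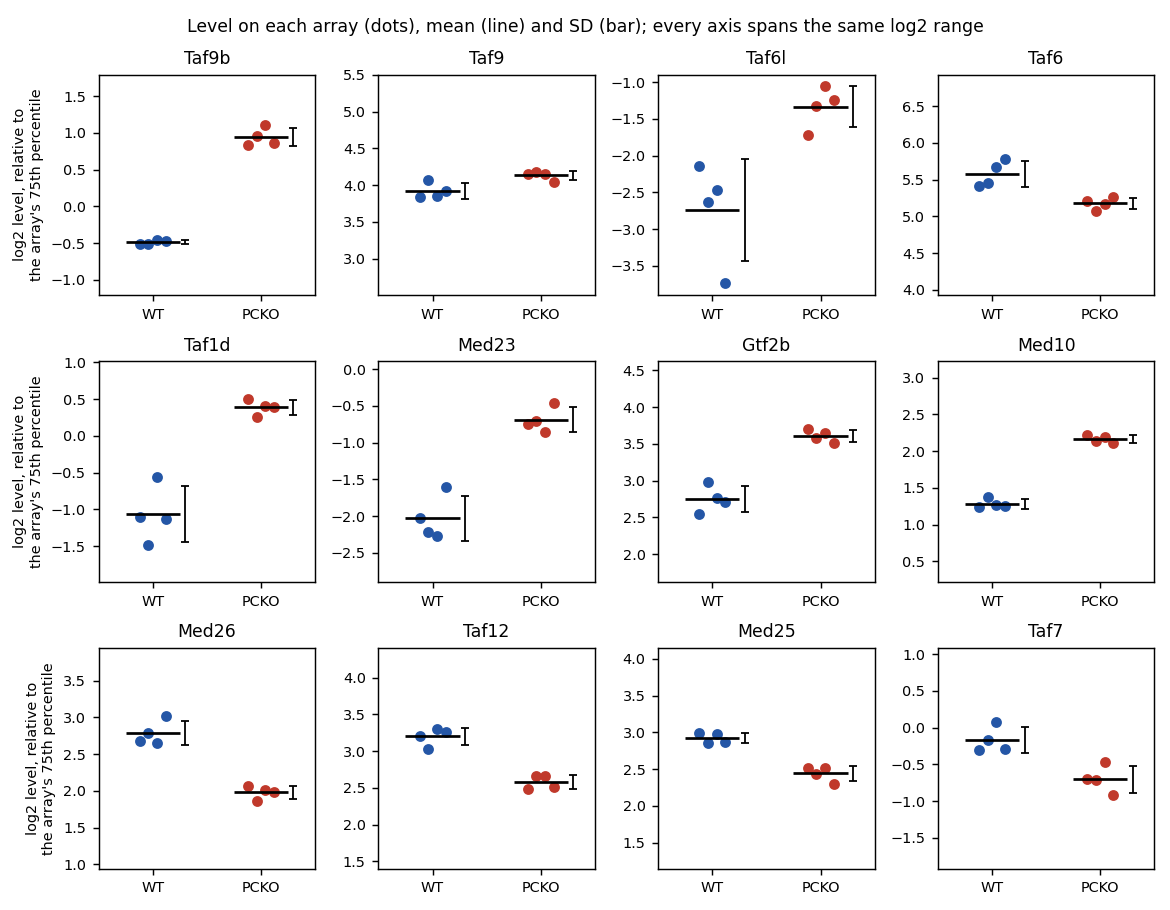
Log2 level on each of the 8 arrays for 12 members, with the group mean (line) and SD (bar beside it), on axes of equal span. PCKO and WT values do not overlap in 11 of the panels, and the paralogue pairs Taf9b with Taf9 and Taf6l with Taf6 stand side by side in the top row; only the values of Taf9 overlap.

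Few subunits of polymerase II were called under percentile scaling. Of 11 subunits tested 3 rose and 1 fell, beside 38.3% and 32.7% of all genes, with a median of 0.11. Polr2h, a subunit shared by all 3 nuclear polymerases, was at 2.11, 1.96, 2.16 and 2.25 in PCKO and 1.24, 1.45, 1.41 and 1.35 in WT. All PCKO mice were higher, and its difference of 0.76 ± 0.09 was the largest among the 11 subunits (limma adjusted p = 6.8e-05). The other 2 that rose were each at 0.30. Polr2m, a polymerase-associated subunit that impedes Mediator-free initiation, fell by 0.17 ± 0.07 (adjusted p = 0.044), with PCKO at 6.82 to 6.93 and WT at 6.96 to 7.09. Quantile normalization called Polr2m higher instead (0.24, adjusted p = 0.0076), as did the deposited series table (0.29, adjusted p = 0.0037). With spike-in centring it was 0.51, and its call was lost without any 1 of 6 of the mice. The direction of Polr2m therefore depended on the scaling. Quantile normalization called 9 of the 11 subunits higher and none lower, and spike-in centring 8 and none. Of all genes, quantile normalization called 43.3% higher and 29.0% lower, and spike-in centring 53.9% and 9.47%.

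TFIID TAFs were called in both directions, as were genes at large. Of 14 TFIID TAFs tested 4 rose and 3 fell, beside 38.3% and 32.7% of all genes, and the median was 0.00. Taf9b, a histone-fold TAF closely related to Taf9, was measured at 0.84, 0.96, 1.10 and 0.87 in PCKO and at -0.51, -0.51, -0.46 and -0.47 in WT. The WT mice were nearly identical and all PCKO mice far above them, by 1.43 ± 0.08 (2.69-fold, limma adjusted p = 7.9e-07). Taf9 was at 4.16, 4.18, 4.15 and 4.04 in PCKO and 3.84, 4.07, 3.85 and 3.91 in WT. Its groups overlapped and it differed by 0.21 ± 0.08 (adjusted p = 0.034), a call lost in several settings, among them without any 1 of 6 of the mice (adjusted p of 0.059 to 0.086). Within each array, the log2 ratio of Taf9b to Taf9 was 1.22 higher in PCKO (p = 0.029 by a two-sided exact permutation test, which can give no smaller p over 70 splits, and 0.038 after Benjamini-Hochberg adjustment over 4 paralogue pairs). A shift of a whole array cancels in this ratio. The ratio test, here and for the other pairs, was added after the values were seen. Any pair whose groups do not overlap reaches this same smallest p, so it is no independent support. Probe sequences were not used here, so whether probes of such close relatives also detect each other's transcripts was not tested. With normexp the difference of the ratio was 0.57.

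The TAFs that fell were Taf12, Taf7 and Taf6. Taf12, the histone-fold partner of Taf4, was at 2.48, 2.66, 2.66 and 2.51 in PCKO and 3.21, 3.04, 3.30 and 3.26 in WT. All PCKO mice were lower, by -0.62 ± 0.09 (limma adjusted p = 2.1e-04), but the value was -0.36 with normexp, still called, and 0.057 with spike-in centring, not called. Taf4 itself was not called (0.22 ± 0.11, adjusted p = 0.10), though it was with normexp (0.44), with spike-in centring (0.90), in the deposited table (0.24) and without WT replicate 4 (0.30). Taf7, which restrains the TFIID subunit Taf1, was at -0.70, -0.72, -0.46 and -0.92 in PCKO and -0.30, -0.17, 0.08 and -0.29 in WT. The lower PCKO values gave -0.53 ± 0.12 (adjusted p = 0.0042). The call was lost in slide row 2 alone (-0.59) and with spike-in centring (0.15). Taf7l, its paralogue best known from germ cells and fat, was not called (-0.09 ± 0.11, adjusted p = 0.47), and its ratio to Taf7 was 0.44 higher in PCKO (two-sided exact permutation p = 0.029, adjusted 0.038). Of 7 germ cell markers 5 were not tested and neither of the other 2 was called. Taf6, the histone-fold partner of Taf9, fell by 0.40 ± 0.10 (adjusted p = 0.0059) with separate groups. Its call was lost under quantile normalization (-0.16), with normexp (-0.17), in the deposited table (-0.18) and in slide row 1 alone (-0.29), and its sign turned with spike-in centring (0.28). Taf5, the scaffold TAF, was at -0.02 ± 0.13 and not called (adjusted p = 0.90).

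The TAF-like subunits of the coactivator complex SAGA both rose, where 38.3% of all genes did. Taf6l, which takes the place of Taf6 there, was at -1.72, -1.33, -1.06 and -1.24 in PCKO and -2.14, -2.63, -2.47 and -3.74 in WT. PCKO mice were all higher, although WT was widely spread and WT replicate 4 lowest, and the probe was well above background on 3 of 4 WT arrays. The difference was 1.41 ± 0.32 (limma adjusted p = 0.0037). In slide row 1 alone it was 0.86, and with normexp it was 0.25 and not called (adjusted p = 0.11). The ratio of Taf6l to Taf6 was 1.81 higher in PCKO (two-sided exact permutation p = 0.029, adjusted 0.038), 1.16 within slide row 1, 2.47 within row 2 and 0.41 with normexp. Taf5l rose by 0.28 ± 0.07 (adjusted p = 0.0069, a call lost in slide row 1 alone), and its ratio to Taf5 was 0.30 higher, a difference that did not pass (two-sided exact permutation p = 0.11, adjusted 0.11). Taf15, an RNA-binding protein of the FET family, was at 0.44 ± 0.19 and not called.

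Symbols of the form Taf1b, Taf1c and Taf1d belong to SL1, the promoter factor of RNA polymerase I, and not to TFIID. Taf1d was at 0.50, 0.26, 0.40 and 0.39 in PCKO and -1.10, -1.48, -0.55 and -1.14 in WT. All PCKO mice were above the 75th percentile of their array and all WT mice below it, a difference of 1.46 ± 0.18 (2.74-fold, limma adjusted p = 9.8e-05). Normexp gave 0.92, still called. Taf1b was at -0.68, -0.94, -1.28 and -1.08 in PCKO and -2.71, -1.82, -2.01 and -2.19 in WT. These groups were also apart, by 1.19 ± 0.20 (adjusted p = 7.4e-04), but with normexp the difference was 0.26 and not called (adjusted p = 0.10). Taf1c was at 0.01 ± 0.10 and not called (adjusted p = 0.92). The polymerase I TAFs therefore held 2 of the 5 members that rose by 2-fold or more.

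Among the general factors TFIIA to TFIIH, 5 of 12 genes rose and none fell, with a median of 0.20. Of all genes 38.3% rose and 32.7% fell. TFIIB is a single protein that helps to set the start site. Its gene Gtf2b was at 3.70, 3.58, 3.64 and 3.51 in PCKO and 2.54, 2.98, 2.77 and 2.71 in WT. All PCKO mice were higher, by 0.86 ± 0.10 (1.81-fold, limma adjusted p = 8.8e-05), and every setting tried kept the call. In TFIIE and TFIIF, which recruit TFIIH and escort the polymerase, 1 of 2 genes each rose, by 0.55 and 0.45. In TFIIA neither gene was called, Gtf2a1 standing at 0.11 ± 0.09 (adjusted p = 0.28) and becoming called with normexp (0.43, adjusted p = 0.014) and spike-in centring (0.79). The brightest probe of Gtf2a2 was at 0.22 (adjusted p = 0.10), its other 2 probes were called higher (0.51 and 0.32), and quantile normalization called the brightest too (0.33, adjusted p = 0.012). In TFIIH 2 of 5 core genes rose. Gtf2h2 was at 0.66, 0.76, 0.52 and 0.70 in PCKO and 0.20, 0.38, 0.52 and 0.28 in WT. Its groups overlapped slightly, at 0.52, and it differed by 0.32 ± 0.09 (adjusted p = 0.014). That call was lost in the deposited table (0.07), over the mean of its 2 probes (0.21) and in each slide row alone. Gtf2h5, the smallest subunit, was at -0.03 ± 0.18 and not called (adjusted p = 0.88).

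Other subunits of TFIIH carry names from DNA repair or the cell cycle. Ercc3, the XPB translocase that opens promoters, was at 1.81, 1.91, 1.77 and 1.80 in PCKO and 0.42, 0.31, 0.47 and 0.40 in WT. Each group was narrow and the gap between them wide, 1.42 ± 0.07 (2.68-fold, limma adjusted p = 4.5e-07). Ercc2, the XPD helicase, rose by 0.67 ± 0.10 (adjusted p = 3.5e-04). Cdk7, the kinase of the polymerase tail, rose by 0.72 ± 0.15 (adjusted p = 0.0025), a call lost in slide row 2 alone (0.53). The TATA-binding protein Tbp was at 1.15, 1.19, 1.38 and 1.25 in PCKO and 0.74, 1.11, 1.15 and 1.11 in WT. Its lowest PCKO and highest WT values nearly met, and the difference of 0.21 ± 0.11 was not called (adjusted p = 0.10), although spike-in centring and normexp called it higher. The list that holds these, Tbp relatives and the Mediator kinase genes had 11 tested genes. Of these 5 rose and 1, Cdk19, fell, beside 38.3% and 32.7% of all genes.

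Neighbouring lists of transcription genes were read in the same way, beside 38.3% of all genes called higher and 32.7% lower. Of 32 genes of promoter-proximal pausing and elongation, 18 rose and 6 fell, with a median of 0.29. The 2 largest changes there were falls: Tcea3, a form of the elongation factor TFIIS, by 2.39 ± 0.09 (limma adjusted p = 1.1e-07), and Mllt3, a subunit of the super elongation complex, by 2.36 ± 0.12 (adjusted p = 5.4e-07). Both groups of each gene were apart: Tcea3 was at 3.15 to 3.45 in PCKO and 5.53 to 5.72 in WT, and Mllt3 at 0.05 to 0.47 and 2.52 to 2.91. Subunits of polymerases I and III rose in 10 of 19 cases and fell in 2 (median 0.20), Polr1c, shared by both, by 0.88 ± 0.08 and Cd3eap, of polymerase I, by 0.86 ± 0.11. Other SAGA genes rose in 8 of 14 cases and fell in 1 (median 0.26), with Usp22, its deubiquitinase, at 1.67 ± 0.17, well above background on 2 WT arrays and not called with normexp (0.18), and Sf3b3 at 1.13 ± 0.09. Tail phosphatases and Integrator genes rose in 8 of 23 cases and fell in 2 (median 0.18), from Ctdsp2, a small phosphatase, at -1.73 ± 0.08 to Rprd2 at 0.81 ± 0.14 (0.48 with normexp).

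**Figure D3:**
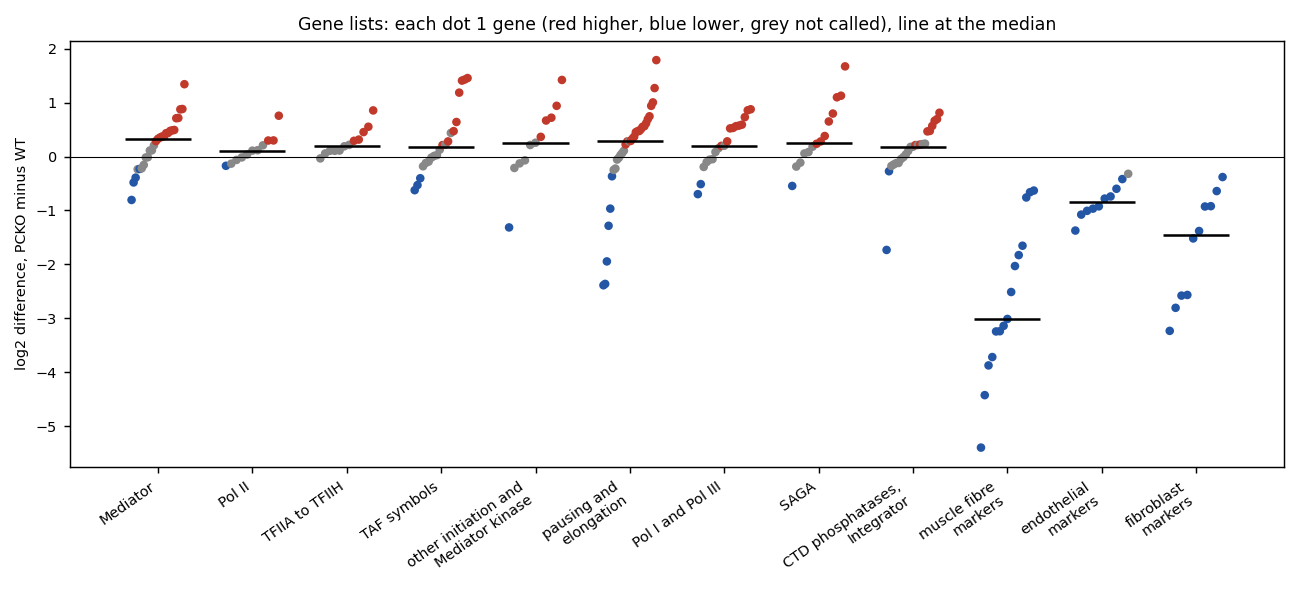
Log2 difference (PCKO minus WT) of every tested gene in the member groups, in the neighbouring lists and in 3 lists of cell type markers, 1 dot per gene, coloured by call, with a line at each median. Medians of the machinery lists lie between 0.11 and 0.33, and those of muscle fibre, endothelial and fibroblast markers at -3.01, -0.85 and -1.45.

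Scaling set how many members were called lower. Measured against 7 probes of labelled control transcripts added to each sample, the 75th percentile stood at -3.33 ± 0.33 in PCKO and -4.01 ± 0.30 in WT (SD, n = 4). The shift was 0.68 (p = 0.029 by a two-sided exact permutation test). Centring on these spike-ins moves every gene up by that amount. It called 53 members higher (75.7%, against 53.9% of all genes) and none lower (0.0%, against 9.47%), with 70 members fitted. All 31 members called higher by percentile scaling were called higher here too, and of the 8 called lower none was. The median was 0.89 for members and 0.74 for all genes, and 25 members rose by 2-fold or more (35.7%, against 36.9%). Quantile normalization called 40 members higher (57.1%, against 43.3% of all genes) and 5 lower (7.14%, against 29.0%), with medians of 0.29 and 0.15. It kept all 31 higher calls and 5 of the 8 lower ones, while Taf6 and Med8 lost theirs and Polr2m was called higher. With normexp 36 members were higher (51.4%, against 36.9%) and 4 lower (5.71%, against 28.3%). In the deposited table, which allowed 44 members to be fitted, 24 were higher (54.5%, against 41.3%) and 4 lower (9.09%, against 28.7%). Median centring went the other way, with 29 members higher and 11 lower. Its medians were 0.12 for members and -0.03 for all genes, and the share of all genes called was not counted there. Under percentile, quantile and spike-in scaling the members' median lay above that of all genes, by amounts that were not tested, and their spread was narrower.

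**Figure D4:**
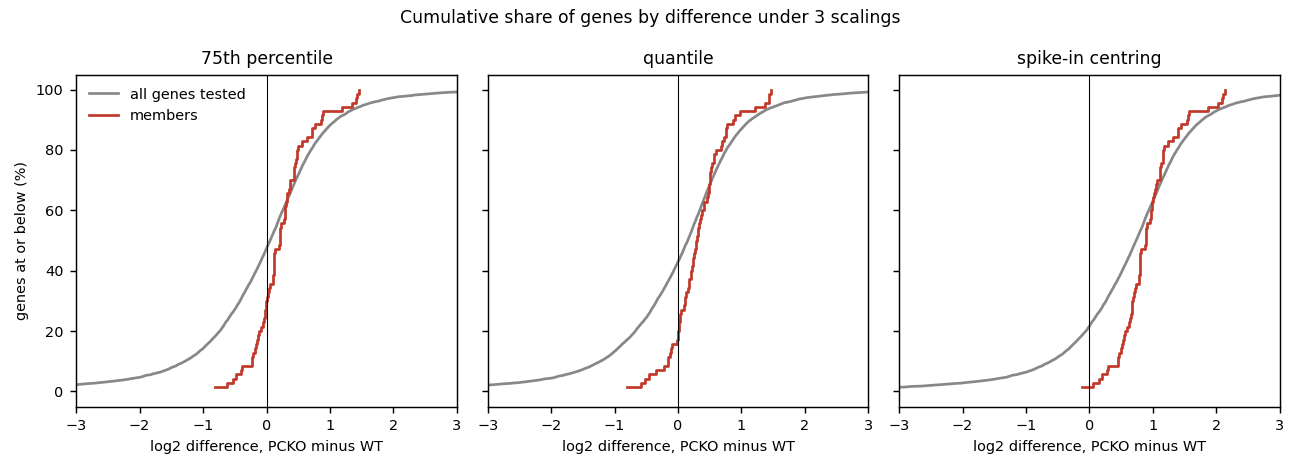
Cumulative share of genes (%) against the log2 difference (PCKO minus WT) for the 70 members (red) and all 12737 genes tested (grey), under 75th percentile, quantile and spike-in scaling; differences past 3 in size are not drawn. The red curve is steeper than the grey one in each panel, and moves right as a whole with spike-in centring, where 1 member, Med26, stays below 0.

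Probes did not always agree within a gene. Of the members, 19 had several tested probes, and the brightest was used. Med28, a head subunit, had a brightest probe at 0.12, not called, and 2 others, at 0.29 called higher and at -0.51 called lower, the last well above background on 3 PCKO arrays. Its call therefore depended on the probe, and the brightest was itself called higher under quantile normalization (0.41), with spike-in centring (0.80), with normexp (0.30) and in the deposited table (0.30). Polr2i, a small polymerase subunit named here after its values were seen, had -0.06 at its brightest probe and 1.24 at its other, both assigned to the same transcript. Med12 was called higher by both probes, at 0.72 and 1.95. Med16, a tail subunit also named for this disagreement, was at -0.24 and 0.69. Med1 was at 0.43, 0.55 and 0.43 by 3 probes, and at -0.11 by another, assigned to a different transcript. Calls in opposite directions occurred in Med28 alone.

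**Figure D5:**
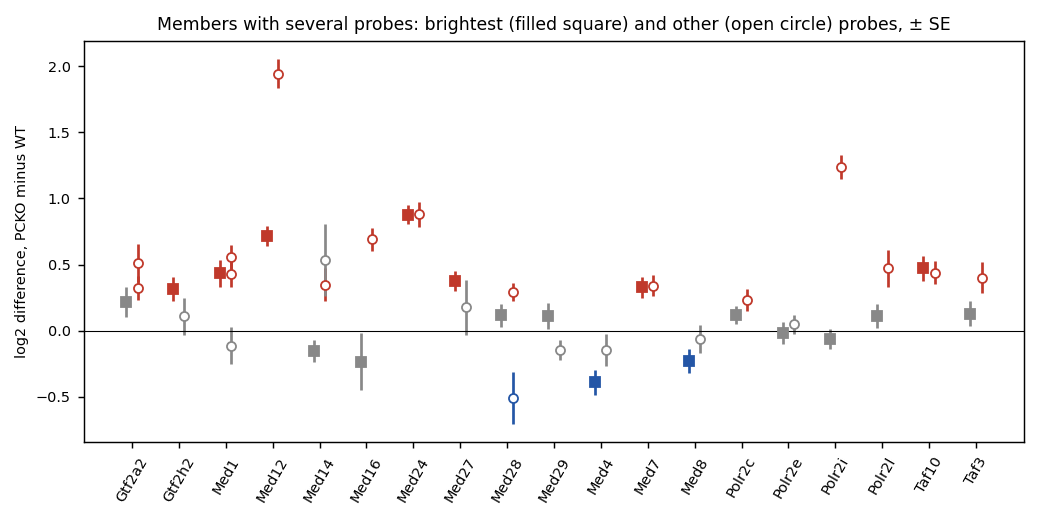
Log2 difference (PCKO minus WT, with its standard error) of each tested probe of the 19 members with several, the brightest as a filled square and others as open circles, coloured by call. Probes of Med24, Med7 and Taf10 lie together, and those of Polr2i, Med12, Med16 and Med28 are the farthest apart.

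Markers of cell types moved with the groups. All 15 muscle fibre markers, among them Acta1, Ckm and Ttn, were tested, and all 15 were lower in PCKO, with a median of -3.01. Their summed level, on a linear scale where 1 is the array's 75th percentile, was 2525 to 2985 in PCKO and 9716 to 11808 in WT. Markers of other cells were lower too. Endothelial markers fell in 9 of 10 cases (sum 116 to 146 in PCKO, 204 to 259 in WT), and fibroblast markers in 10 of 10 (483 to 584, and 901 to 1169). Macrophage and leukocyte markers fell in 7 of 10 tested (14.5 to 24.7, and 32.2 to 41.2), and satellite cell markers in 4 of 6 (44.1 to 52.4, and 90.3 to 127), with Myf5 not tested. Smooth muscle markers fell in 8 of 8 (52.5 to 70.8, and 103 to 129), tendon markers in 5 of 6 (32.5 to 68.5, and 73.8 to 171) and adipocyte markers in 1 of 5 (142 to 215, and 260 to 341). No marker of any of these lists rose under this scaling, in which 32.7% of all genes were called lower. With spike-in centring, where 9.47% of all genes were lower, 12 muscle fibre, 6 fibroblast, 3 tendon, 2 macrophage and leukocyte, 1 endothelial, 1 satellite cell, 0 smooth muscle and 0 adipocyte markers were lower. There 1 macrophage and leukocyte and 1 satellite cell marker were higher. The part of cell composition in the members' differences was not tested.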

How the data were processed

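Total RNA from 8 mice was labelled with Cy3, per the labels' protocols. The scanner files deposited by the authors give the intensity of each spot. Per the file headers, Feature Extraction 10.7.3.1 produced them and took off each array's background; arrays were not yet brought to a common scale. The deposited series table of log2 values, made by unstated steps, served as an alternative in which 44 members could be fitted.

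Here log2 processed intensity was averaged over the spots of a probe, leaving out outlier spots, and each array's 75th percentile (55681 non-control probes) was subtracted. Probe accessions were matched to RefSeq symbols: 26582 probes had 1 symbol, 0 had several and 29099 were unnamed. A probe was tested where well above background on at least 4 of 8 arrays, and a gene was its brightest probe. The 2 groups were fitted in R 4.3.3 by limma 3.58.1 (lmFit, eBayes, two-sided, group as sole term), with Benjamini-Hochberg adjustment over 12737 genes and a threshold of 0.05. In simulated data of the same size, 67 genes were changed by 0.5 log2 units, 67 by 1 and 66 by 2. Of these 46.3%, 82.1% and 98.5% were recovered, with 9 false calls among 160. In the real data 71.1% of genes were called, a far larger share, so these rates need not hold there. The number of arrays limits the precision.

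Members and lists were chosen with earlier results of these data known. Named genes were, among called members with non-overlapping groups, the 10 largest and up to 10 smallest differences, the extremes of each subgroup with 3 or more tested genes, paralogue pairs, members with probes called in opposite directions, known coactivator contacts (Med1, Med14, Med15) with Polr2a and Gtf2b, fixed initiation genes, the 2 largest changes of each neighbouring list and both knocked-out genes. The ratio test of the 4 tested paralogue pairs was added after the values were seen. Alternatives were quantile normalization, centring on 7 spike-in probes or on the median, normexp (offset 50) on the median spot signal, other filters, outlier spots kept, averaging the probes of a gene, an intensity trend, the deposited table, blocks for replicate number or slide row, each row alone, and leaving out each mouse. The main fit treated the mice as unpaired. Whether shared replicate numbers pair them was not settled by the check given with the alternatives.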

Additional observations from a re-analysis of the deposited data

Results flagged for a closer look

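Among the 100 groups of 4 mice behind the 50 single genes described, 2 held a mouse far from the other 3 by Dixon's test, where chance flags about 1 in 20. Both were WT replicate 1. Gtf2a1 was 3.22 there against 3.47 to 3.50 in the other WT mice. Tbp was 0.74 there against 1.11 to 1.15.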

How the results depend on the processing

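Members called higher numbered 53 with spike-in centring and 16 in slide row 1 alone, against 31, and 22 to 40 in the other settings. Members called lower numbered 5 under quantile normalization, 0 with spike-in centring, 4 with normexp, 4 in the deposited values (44 members), and 4 and 5 in slide rows 1 and 2 alone, against 8. With median centring the lower count rose to 11. The median was 0.29 under quantile normalization, 0.89 with spike-in centring, 0.12 with median centring and 0.31 with normexp, against 0.21. Leaving out each mouse in turn gave 29 to 33 higher, 6 to 8 lower and medians of 0.15 to 0.23. Shares of all genes called were not counted for these fits or for median centring.

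Single genes changed sign as follows, mostly near 0, and the cause was not tested. With spike-in centring Ccnc became 0.47, Cdk8 0.61, Gtf2h5 0.65, Med14 0.53, Med25 0.20, Med4 0.29, Med8 0.45, Polr2m 0.51, Taf12 0.057, Taf5 0.66, Taf6 0.28, Taf7 0.15 and Taf7l 0.59. With normexp Cdk8 became 0.18, Gtf2h5 0.20, Med13 -0.13, Med14 0.11, Med8 0.056, Polr2m 0.11, Taf5 0.068 and Taf7l 0.026. Quantile normalization gave Gtf2h5 0.023, Med8 0.036 and Polr2m 0.24. The deposited values gave Cdk8 0.28, Polr2m 0.29, Taf1c -0.021 and Taf5 0.014. The mean of a gene's probes gave Ccnc 0.041, Cdk8 0.14, Med14 0.24 and Med28 -0.033, and median centring gave Taf1c -0.071. Slide row 1 alone gave Taf1c -0.055 and Taf5 0.13, and row 2 alone Gtf2a1 -0.00403 and Taf7l 0.022. Leaving out a mouse took Gtf2h5 from -0.14 to 0.10, Taf1c from -0.061 to 0.051 and Taf5 from -0.093 to 0.10. Over 1168 alternative values of 54 single results, 1042 kept direction and side of the threshold (or, for ratios without a threshold, lay within 1 SD), 61 lost a call, 16 gained one, and 4 values of 2 ratios (Taf9b to Taf9, and Taf6l to Taf6) moved by more than 1 SD.

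With the replicate number as a block, 30 members were higher and 9 lower, and Taf9 and Polr2m lost their calls. The share of all genes called in that fit was not counted. Same-numbered mice had deviations correlated at 0.057, 0.12, 0.068 and 0.053. These correlations are weak, yet each mouse correlated best with its own number, so whether the numbers pair the mice was not settled. Dim probes, such as those of Taf6l, Taf1b and Med13, limit what the arrays resolve.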
